A study of Mus musculus with 20 samples.

Results

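The 83 genes described here encode enzymes and complex subunits that write, erase or read marks on histones or that move nucleosomes. They were chosen by symbol: every gene beginning with Kmt, Kdm, Setd, Chd with a digit, Arid, Smarc, Hdac or Brd with a digit, without Kdm5c, Kdm5d and Kdm6a. A gene also had to be listed in all 20 libraries and reach 0.5 FPKM in at least 5 of them. All 83 matching genes passed that filter, and they are 83 of the 13174 genes tested. By symbol the set holds 7 H3K4 methyltransferases of the Kmt2 and Setd1 type, 11 other Kmt and Setd genes, 14 Kdm demethylases, 11 Hdac deacetylases, 11 Chd genes, 13 Smarc subunits, 8 Arid genes and 8 Brd genes. The rule reads symbols, so it also takes in Chd3os and Brd3os, opposite-strand genes listed next to Chd3 and Brd3, for which no role in chromatin is claimed here.

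Histone methyltransferases and demethylases add and remove methyl groups on histone lysines, and deacetylases remove acetyl groups, which bromodomain proteins of the Brd type bind. Chd and Smarc ATPases use ATP to slide or evict nucleosomes, and Arid1a, Arid1b and Arid2 are DNA-binding subunits of the BAF and PBAF complexes built around Smarca2 or Smarca4. In the hippocampus, histone acetylation and methylation are known to change with learning, and mutations in many of these genes cause intellectual disability or autism in people. FMRP, the product of Fmr1, is an RNA-binding protein that represses translation in neurons, and mRNAs of chromatin regulators such as Chd8 and Kmt2a have been reported among its targets. An mRNA level, which is what was measured here, does not show how much protein is made from it.

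mRNA sequencing was carried out on mouse hippocampus, with 5 libraries in each of 4 groups: male Fmr1 KO, female Fmr1 KO, male C57 wild type (WT) and female C57 WT. The mutants are called KO in the sample titles and a knockdown in the genotype field, and the sources used here name no allele, age or agent. Fmr1 itself averaged 3.56 ± 0.187 FPKM in male KO and 11.4 ± 0.527 FPKM in male WT (SD, n = 5 each), and 3.32 ± 0.327 FPKM in female KO and 10.6 ± 0.558 FPKM in female WT. Every KO library was below every WT library of its sex (exact two-sided permutation p = 0.00794 in each sex, the smallest that 252 splits allow), and the KO mean was 31.3% of WT in males and 31.2% in females.

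The libraries resembled each other closely, with pairwise Pearson correlations of log2 values from 0.977 to 0.990. Summed FPKM ran from 230631 to 244976, and the number of reads behind it is not known, since the files give no counts. All 5 neuronal markers were present, with a summed level between 892 and 976 FPKM. The 5 dentate granule cell markers were less even. They summed to between 39.9 and 56.1 FPKM in female KO and between 55.1 and 69.3 FPKM in female WT. In male KO the sum was 48.9 to 56.3 FPKM and in male WT 52.2 to 57.4 FPKM. The part of such differences in the comparisons below was not tested. RNA of neighbouring tissue was uneven. Ttr, made by choroid plexus, exceeded 500 FPKM in 4 libraries (female KO 4, female KO 5, male KO 2 and female WT 4), and Prl, a pituitary hormone, exceeded 4 FPKM in female KO 2, female KO 3 and female KO 4. The 4 skeletal muscle markers summed to between 5.07 and 8.44 FPKM in male WT. They reached at most 3.64 FPKM in male KO, 3.65 FPKM in female KO and 3.31 FPKM in female WT. Male WT is a side of KO against WT in males and of males against females within WT. The part of muscle RNA in those comparisons was not tested. In bulk tissue, fewer cells of a type and less RNA per cell cannot be told apart.

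Together the 83 genes were a small and steady share of the transcriptome. Their FPKM summed to 804 ± 10.6 in male KO and 807 ± 10.1 in female KO, against 810.2 ± 17.1 in male WT and 804 ± 13.8 in female WT (SD, n = 5 each), or 0.325% to 0.361% of all FPKM in a library. The groups overlapped in this sum. The median gene of the set had a mean level of 6.02 FPKM, against 5.61 FPKM over all genes tested. Its spread within a group was small as well: the median SD of log2(FPKM + 1) was 0.0846 for the 83 genes and 0.106 for all genes tested.

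**Figure D1:**
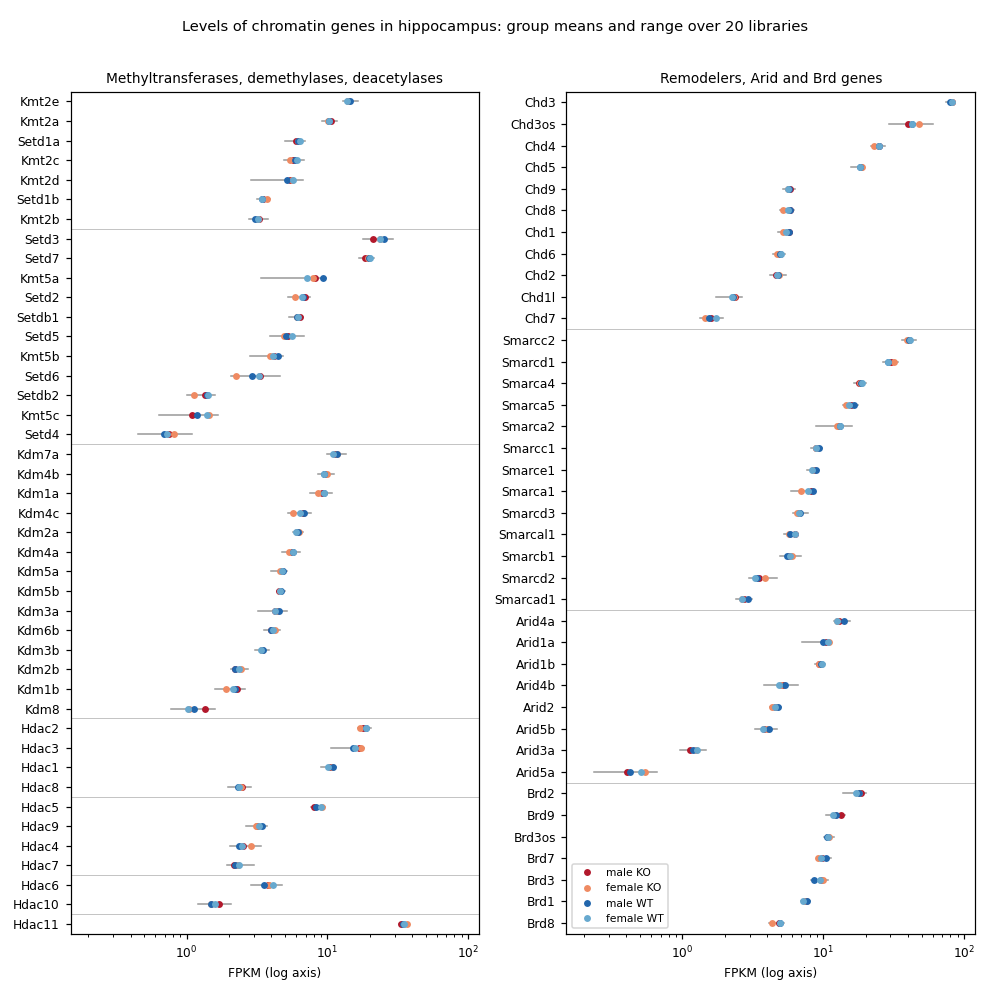
Mean FPKM (log axis) of the chromatin genes, all but 1 of the 83, in male KO, female KO, male WT and female WT, with a grey line from the lowest to the highest of 20 libraries; genes are ordered by level within their family. Chd3, at 81.6 FPKM, stands at the right and Arid5a, at 0.469 FPKM, at the left, and the 4 group means of most genes lie on top of each other.

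Remodeler genes held the highest levels. Chd3, an ATPase of the NuRD complex, averaged 81.6 FPKM, more than 3 times its NuRD relative Chd4 at 24.4 FPKM and more than Chd5, the neuron-enriched member of that subfamily, at 18.5 FPKM. Chd3os was listed at 43.3 FPKM. Among BAF subunits, Smarcc2 averaged 40.7 FPKM and Smarcd1 29.98 FPKM, against 8.99 FPKM for the paralog Smarcc1, 3.5001 FPKM for Smarcd2 and 6.73 FPKM for Smarcd3. Of the ATPases, Smarca4 averaged 18.4 FPKM and Smarca2 13.0 FPKM, and the ISWI ATPases Smarca5 and Smarca1 15.6 and 7.84 FPKM. FPKM is scaled to transcript length, which makes these levels only roughly comparable between genes. Smarcc1, Smarcd1 and Smarcd3 overlap a gene on the opposite strand, and whether reads were assigned by strand is not known.

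Hdac11, the sole class IV deacetylase, was the highest of its family at 34.9 FPKM, above the class I enzymes Hdac2 (18.1 FPKM), Hdac3 (16.3 FPKM) and Hdac1 (10.6 FPKM). Class IIa enzymes, which shuttle between nucleus and cytoplasm, were led by Hdac5 at 8.64 FPKM, and class IIb by Hdac6, a tubulin deacetylase, at 3.83 FPKM. Kmt2e, whose own methyltransferase activity is in doubt, led the Kmt2 genes at 14.1 FPKM, with Kmt2b lowest of them at 3.21 FPKM. Setd3, an actin histidine methyltransferase despite its place in the Setd series, led the other methyltransferases at 23.4 FPKM, followed by Setd7 at 19.5 FPKM. Kdm7a, which removes H3K9 and H3K27 dimethylation, led the demethylases at 11.4 FPKM. Arid4a led the Arid genes at 13.0 FPKM and Brd2, a BET protein, the Brd genes at 17.9 FPKM. In all, 24 genes averaged more than 10 FPKM and 2 averaged less than 1 FPKM, Setd4 and Arid5a.

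Loss of Fmr1 was first asked about in females, where the comparison of KO with WT called 3.32% of all genes tested (438 of 13174, limma with Benjamini-Hochberg adjustment, adjusted p under 0.05). None of the 83 chromatin genes was among them. At an unadjusted p under 0.05 there were 16 of 83, or 19.3%, against 19.5% of all genes. Of these 16, 3 were higher and 13 lower in female KO, which is 3.61% and 15.7% of the set, against 10.4% and 9.09% of all genes. The median difference over the 83 genes was -0.00140 on the log2(FPKM + 1) scale, beside 0.00520 over all genes, with 40 genes above and 43 below 0. With the trend on GC content removed from each library, 30 were above and 53 below 0.

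These counts were smaller without the libraries that carried RNA of other tissues. Without the 3 female KO libraries high in Prl, 2 of the 83 were higher and 3 lower at an unadjusted p under 0.05. Of all genes, 6.27% were higher and 5.37% lower at that p, and 8 were called. Without the 4 libraries high in Ttr, 2 of the 83 were higher and 6 lower. Of all genes, 7.39% were then higher and 6.42% lower at that p, and 76 were called. The 3 pituitary markers in the files summed to between 0.508 and 129 FPKM in female KO and between 0.128 and 4.52 FPKM in female WT, the 5 choroid plexus markers to between 41.3 and 1505 FPKM in female KO and between 11.0 and 902 FPKM in female WT, and the 4 erythrocyte markers to between 385 and 601 FPKM in female KO and between 277 and 499.9 FPKM in female WT. These counts come from fewer libraries, and the part of such RNA in them was not tested.

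The intervals, taken gene by gene, give the precision of these differences against the spread between libraries alone. For 62 of the 83 genes, 74.7%, the 95% interval of the female difference lay within 0.25 on the log2 scale on either side of 0, against 59.2% of all genes, and for 81 genes, 97.6%, it lay within 0.5, against 91.3% of all genes. The exceptions at the wider bound were Kmt5a and Setd6.

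**Figure D2:**
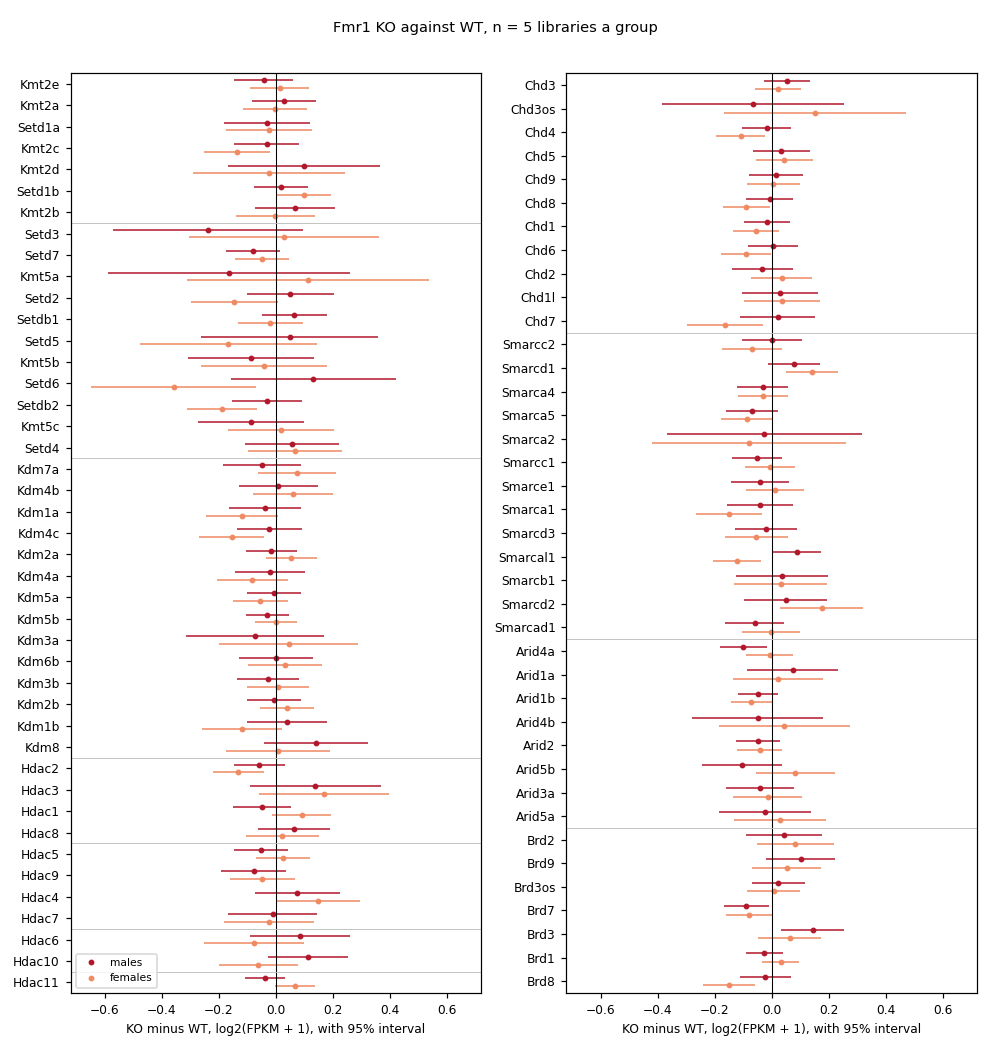
KO minus WT on the log2(FPKM + 1) scale for the chromatin genes, all but 1 of the 83, in males and in females, with 95% intervals from limma (n = 5 libraries a group), by family. All points drawn but Setd3 in males and Setd6 in females lie within 0.2 of 0, and the widest intervals belong to Kmt5a, Smarca2, Setd3, Chd3os and Setd5.

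Brd8, a bromodomain subunit of the NuA4 acetyltransferase complex, came nearest to the threshold. It had 4.29, 4.27, 4.65, 4.30 and 4.14 FPKM in female KO libraries, against 4.42, 4.95, 4.98, 5.06 and 5.14 FPKM in female WT libraries. Only female KO 3 and female WT 1 crossed. The difference was -0.15 (95% interval -0.24 to -0.06, adjusted p = 0.0633), and it passed the threshold when female WT 1 was left out (adjusted p = 0.0260).

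Smarcd1, a BAF subunit, had the next smallest p and was one of the 3 genes that leaned higher, with Smarcd2 and Setd1b. Its levels were 34.0, 30.9, 30.4, 31.8 and 33.1 FPKM in female KO, against 30.7, 29.6, 28.8, 28.2 and 27.4 FPKM in female WT. All but 1 KO value lay above the WT range, and the difference was 0.14 (adjusted p = 0.0750). Setdb2, a SET-domain protein assigned to H3K9 methylation, averaged 1.12 ± 0.143 FPKM in female KO and 1.42 ± 0.132 FPKM in female WT, a difference of -0.19 (adjusted p = 0.0815).

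In 4 genes, 4.82% of the set, the female groups did not overlap, against 5.99% of all genes, and in all 4 the KO was the lower one, as in 2.82% of all genes. Hdac2, a class I deacetylase known in mice to restrain memory formation, had 16.6, 17.4, 16.6, 17.6 and 17.0 FPKM in female KO and 17.7, 18.01, 19.96, 20.4 and 17.8 FPKM in female WT (difference -0.13, adjusted p = 0.0982). Smarcal1, an annealing helicase at stalled replication forks, had 5.91, 5.76, 5.55, 5.59 and 5.72 FPKM in female KO and 6.17, 6.21, 6.45, 6.44 and 6.23 FPKM in female WT (difference -0.12, adjusted p = 0.0973). The other two were Chd6 (-0.09, adjusted p = 0.251) and Brd7 (-0.08, adjusted p = 0.262), a PBAF subunit. None of these differences passed the threshold.

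Among the methyltransferases, Kmt2c, an H3K4 monomethyltransferase at enhancers, differed by -0.14 (adjusted p = 0.181), and Setd6, a methyltransferase of the NF-kB subunit RelA, had the largest difference of the set at -0.36 (95% interval -0.65 to -0.07, adjusted p = 0.160). Setd6 stood at 2.06, 2.16, 2.15, 2.35 and 2.50 FPKM in female KO, against 2.29, 4.001, 2.76, 2.56 and 4.64 FPKM in female WT, so the WT libraries were the more scattered. Of 14 demethylases 8 lay above and 6 below 0, and Kdm4c, an H3K9 trimethyl demethylase, was the furthest from 0 at -0.15 (adjusted p = 0.121). Class IIa Hdac4 differed by 0.15 (adjusted p = 0.258). In the Chd family 4 of 11 genes had an unadjusted p under 0.05, all lower in KO, a direction held at that p by 9.09% of all genes: Chd4 (-0.11), Chd6, Chd7 (-0.16) and Chd8 (-0.09). The family as a whole did not lean lower, with 6 genes above and 5 below 0 and a median of 0.00624. The adjusted p-values of those 4 genes in females ran from 0.151 to 0.251. In males 0 of the 11 had an unadjusted p under 0.05, and no Chd gene was called in either sex. Chd7 and Chd8 are each mutated in human neurodevelopmental disorders. Arid1b, the Arid gene with the smallest p, differed by -0.07 (adjusted p = 0.253). The adjusted p of Kmt2a was 0.990.

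In males the same comparison called 0.0455% of all genes (6 of 13174) and none of the 83. At an unadjusted p under 0.05 there were 4 of the set, 4.82%, against 8.69% of all genes. The smallest adjusted p was 0.417, for the BET gene Brd3. Its levels were 9.77, 10.1, 10.04, 8.68 and 9.72 FPKM in male KO, against 8.61, 8.29, 8.91, 9.19 and 8.20 FPKM in male WT, a difference of 0.14. Male KO 4 fell among the WT libraries. The other 3 genes were Arid4a (-0.10), a subunit of the Sin3 deacetylase complex, Brd7 (-0.09) and Smarcal1 (0.09), with adjusted p-values from 0.476 to 0.551.

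Hdac9, a class IIa deacetylase, was the 1 gene whose male groups did not overlap (1.2% of the set, 2% of all genes): 3.25, 3.22, 2.96, 3.27 and 3.23 FPKM in male KO and 3.56, 3.45, 3.45, 3.28 and 3.33 FPKM in male WT. The ranges all but touched, and the difference of -0.08 had an adjusted p of 0.745. By family, Hdac2 (-0.06), Hdac10 (0.11), Hdac11 (-0.04), Chd3 (0.05), Kdm8 (0.14), Kmt2b (0.07) and Setd7 (-0.08) had the smallest p-values of their groups in males, with adjusted p-values from 0.662 to 0.839. The median over the 83 genes was -0.0178, beside -0.00149 over all genes, with 34 above and 49 below 0. For 67 genes the interval lay within 0.25 of 0, which is 80.7% of the set and 67.7% of all genes.

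Averaged over both sexes, KO against WT called 3.22% of all genes and none of the 83, with 14 of the set at an unadjusted p under 0.05 (16.9%, against 18% of all genes). Smarcd1 came closest, at 0.11 (adjusted p = 0.0542). It had 28.8, 30.9, 30.02, 30.9 and 30.9 FPKM in male KO and 26.5, 26.9, 29.9, 30.6 and 29.6 FPKM in male WT, so its male groups overlapped. Brd7 (-0.08, adjusted p = 0.0975) and Hdac2 (-0.09, adjusted p = 0.1001) followed.

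Whether the KO effect differed between the sexes was tested as an interaction. It called 0.0455% of all genes and none of the set, and 3 of the 83 had an unadjusted p under 0.05, 3.61% against 10% of all genes. Smarcal1 was the first of these: the KO effect was 0.09 in males and -0.12 in females, and their difference of 0.21 had an adjusted p of 0.269. In males its KO libraries ran from 5.72 to 6.53 FPKM and its WT libraries from 5.23 to 6.15 FPKM. Setd6 differed by 0.49 between the sexes (adjusted p = 0.435) and Hdac11 by -0.11 (adjusted p = 0.472). No gene of the set was shown to respond differently in males and females.

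Male and female KO libraries were then compared with each other. Here 4 of the 83 genes passed the threshold, 4.82%, against 5.38% of all genes (709 of 13174), so the share was near the background. Hdac5 and Hdac11 were lower in male KO, a direction called for 3.13% of all genes, and Kdm4c and Smarca1 were higher, as were 2.25% of all genes. All 4 differences were modest, at most 0.21 on the log2 scale. Male and female KO did not overlap in 4 genes of the set, Hdac5, Hdac11, Smarca1 and Setd6, which is 4.82% against 8.02% of all genes.

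Hdac5, a class IIa deacetylase whose export from the nucleus follows neuronal activity, had 8.21, 7.86, 7.85, 7.66 and 8.45 FPKM in male KO, against 9.15, 9.40, 9.17, 9.19 and 9.03 FPKM in female KO. No male KO library reached the female KO range, and the difference was -0.18 (95% interval -0.27 to -0.08, adjusted p = 0.0309). In WT its difference between males and females was -0.10 (adjusted p = 0.453), and the interaction was -0.08 (adjusted p = 0.726).

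Hdac11, a deacetylase that also removes fatty acyl groups from lysine, had 33.5, 33.8, 32.9, 34.1 and 33.1 FPKM in male KO and 36.9, 35.5, 37.5, 35.1 and 38.1 FPKM in female KO. These ranges were apart too, with a difference of -0.13 (95% interval -0.20 to -0.05, adjusted p = 0.0388), while in WT it was -0.02 (adjusted p = 0.899).

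Kdm4c had 7.15, 6.84, 6.34, 6.72 and 6.63 FPKM in male KO, against 6.74, 5.57, 5.62, 5.25 and 5.25 FPKM in female KO. Female KO 1 lay within the male range and the other 4 below it. The difference was 0.21 (95% interval 0.10 to 0.33, adjusted p = 0.0309), and 0.08 in WT (adjusted p = 0.622).

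Smarca1, the X-linked ISWI ATPase SNF2L of the NURF remodeling complex, had 8.80, 8.72, 7.62, 7.55 and 8.28 FPKM in male KO and 7.19, 5.93, 6.77, 7.31 and 7.45 FPKM in female KO. The ranges did not overlap, and the difference was 0.21 (95% interval 0.10 to 0.33, adjusted p = 0.0325). Smarca1 differed by 0.11 between male and female WT (adjusted p = 0.524). The interactions of Kdm4c and Smarca1 had adjusted p-values of 0.596 and 0.677.

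**Figure D3:**
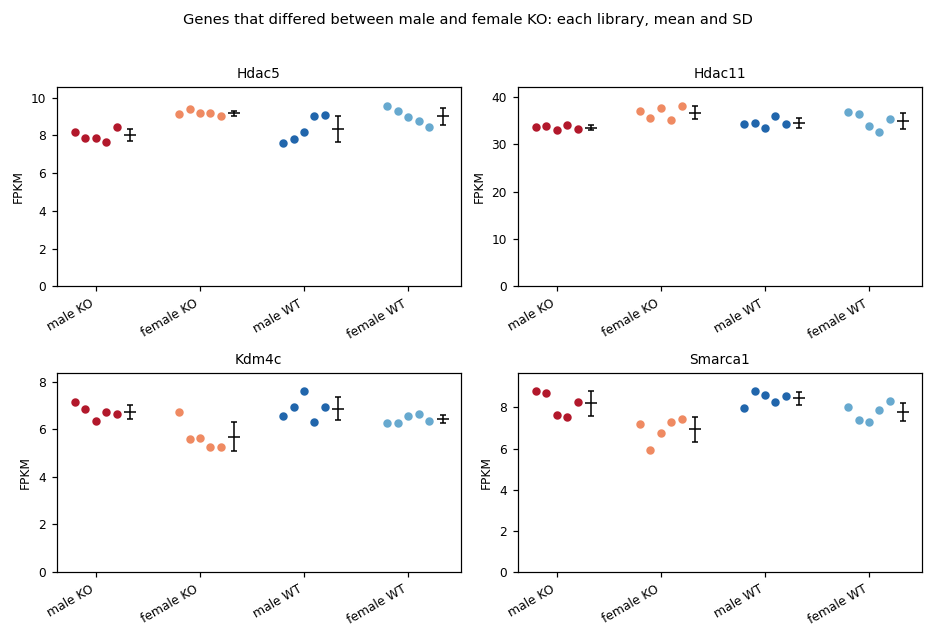
FPKM of Hdac5, Hdac11, Kdm4c and Smarca1 in each library of male KO, female KO, male WT and female WT, with the mean and SD beside the points (n = 5 each). Male KO points lie below female KO points for Hdac5 and Hdac11 and above them for Smarca1, and for Kdm4c 1 female KO library, at 6.74 FPKM, reaches the male KO values.

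These 4 genes are the ones a difference between male and female KO was called for, so the DNA before their start sites is shown. RefSeq windows were matched for 61 of the 83 genes, these 4 included. Each window is the 250 bases upstream of a RefSeq start site in GRCm38.p6, the patched form of mm10, written 5′ to 3′ on the gene's strand with every CG dinucleotide in capitals. CG reads the same on both strands, and 92.1% of the 32851 windows of this kind in the table hold at least 1, with a median of 6. Hdac5 lies on the minus strand (chr11:102230173-102230422), Hdac11 on the plus strand (chr6:91156565-91156814), Kdm4c on the plus strand with 2 start sites (A at chr4:74242247-74242496, B at chr4:74251629-74251878), and Smarca1 on the minus strand (chrX:47892614-47892863).
Hdac5: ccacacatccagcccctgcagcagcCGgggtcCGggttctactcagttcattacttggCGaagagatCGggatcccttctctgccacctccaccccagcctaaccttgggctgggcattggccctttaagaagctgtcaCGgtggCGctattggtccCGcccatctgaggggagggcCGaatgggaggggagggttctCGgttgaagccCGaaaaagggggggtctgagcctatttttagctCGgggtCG
Hdac11: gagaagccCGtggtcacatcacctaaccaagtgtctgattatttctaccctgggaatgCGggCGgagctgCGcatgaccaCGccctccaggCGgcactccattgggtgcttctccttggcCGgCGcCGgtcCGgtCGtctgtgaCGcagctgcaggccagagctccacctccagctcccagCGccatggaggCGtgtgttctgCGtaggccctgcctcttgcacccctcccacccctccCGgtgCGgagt
Kdm4c A: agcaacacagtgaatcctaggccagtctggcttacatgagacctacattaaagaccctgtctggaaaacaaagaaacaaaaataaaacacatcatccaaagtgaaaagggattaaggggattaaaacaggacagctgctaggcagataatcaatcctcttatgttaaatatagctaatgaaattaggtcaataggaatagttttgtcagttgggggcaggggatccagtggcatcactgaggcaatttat
Kdm4c B: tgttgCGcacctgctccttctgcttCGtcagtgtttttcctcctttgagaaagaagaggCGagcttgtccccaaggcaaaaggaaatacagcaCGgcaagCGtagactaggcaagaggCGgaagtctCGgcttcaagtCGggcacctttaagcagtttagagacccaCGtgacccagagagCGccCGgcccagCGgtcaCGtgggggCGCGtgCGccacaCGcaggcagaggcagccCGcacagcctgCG
Smarca1: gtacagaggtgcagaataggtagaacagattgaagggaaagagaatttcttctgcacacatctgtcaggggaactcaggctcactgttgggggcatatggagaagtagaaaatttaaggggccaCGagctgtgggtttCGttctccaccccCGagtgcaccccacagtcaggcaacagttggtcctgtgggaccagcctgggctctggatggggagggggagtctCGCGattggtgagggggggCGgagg
The windows of Hdac5 and Hdac11 hold 12 and 17 CG, and that of Smarca1 holds 6. The RefSeq start sites of Hdac11 and Smarca1 lie 150 and 361 bases inside the deposited gene models. Part of the Hdac11 window and all of the Smarca1 window thus fall within those models. Kdm4c has a window with no CG, at the start of the deposited gene model, and one with 19 CG 9382 bases further in. FPKM of a whole gene does not tell which of those start sites was used.

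The transcripts of these genes lay on either side of the set's median GC content of 51.3%. Measured on the longest coding transcript, GC content was 58.8% for Hdac5 and 57.4% for Hdac11, the genes that were lower in male KO, and 43.7% for Kdm4c and 39.5% for Smarca1, the genes that were higher. The set as a whole ran from 39.5% to 60.0%. Genes nearer to its ends than Kdm4c and Hdac11, such as Kdm7a (39.6%) and Kmt5c (59.99%), were not called. The libraries themselves differed in how levels followed GC content. For each library, the deviation of every gene from its mean log2 level over all 20 libraries was set against GC content. The slope of this deviation was 0.0613 to 0.0773 per 10 percentage points in the 5 female KO libraries, the highest 5 of all 20. In male KO it was -0.0690 to 0.0101, relative to the mean of all libraries. Across the 83 genes the male against female KO difference had a Pearson r of -0.39 with GC content, and across the 13095 genes with a GC value it was -0.40; genes share these libraries and are not independent.

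With the trend on GC content removed from each library, none of the 4 calls remained, and 0.767% of all genes were called. Hdac5 then differed by -0.07 (adjusted p = 0.311), Hdac11 by -0.03 (adjusted p = 0.672), Kdm4c by 0.17 (adjusted p = 0.139) and Smarca1 by 0.13 (adjusted p = 0.191). The slope went with the group, so removing it also removes any difference between the groups that follows GC content. The part of GC content in these differences was not tested.

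RNA of other tissues was uneven in this comparison as well. The 5 choroid plexus markers summed to between 17.4 and 598 FPKM in male KO and between 41.3 and 1505 FPKM in female KO, the 3 pituitary markers in the files to between 0.205 and 0.751 FPKM in male KO and between 0.508 and 129 FPKM in female KO, and the 4 erythrocyte markers to between 309 and 522 FPKM in male KO and between 385 and 601 FPKM in female KO. Without the 4 libraries high in Ttr none of the genes was called, although Hdac5 (-0.18), Hdac11 (-0.13) and Smarca1 (0.25) differed by no less than before and Kdm4c by 0.15. Without the 3 libraries high in Prl, all of them female KO, none was called either. The differences were then -0.16 for Hdac5, -0.16 for Hdac11, 0.15 for Kdm4c and 0.14 for Smarca1. Over all genes, 71 were called without the libraries high in Ttr and 23 without those high in Prl, against 709 with all libraries. These fits hold fewer KO libraries, so fewer calls can come from that alone, and the part of such RNA was not tested.

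Single libraries mattered as well. The call of Hdac5 was lost without any 1 KO library other than female KO 1 and male KO 5, that of Hdac11 without any but female KO 4, and that of Kdm4c without any but female KO 1, male KO 3 and male KO 5. Smarca1 lost its call without female KO 2, female KO 3, male KO 1, male KO 2 or male KO 5. Over these cases the adjusted p lay between 0.0517 and 0.0901.

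**Figure D4:**
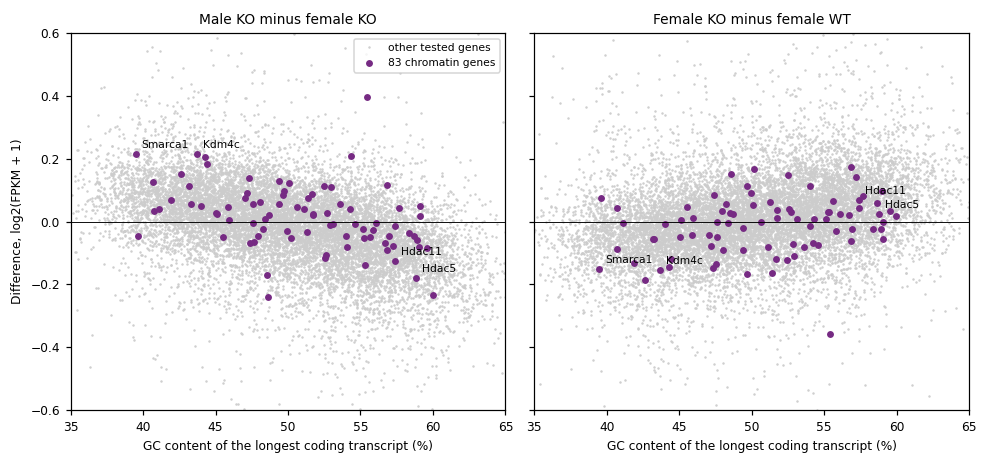
Difference on the log2(FPKM + 1) scale against GC content of the longest coding transcript (percent), for male KO minus female KO at left and female KO minus female WT at right, with the 83 chromatin genes in purple over the other tested genes in grey; genes beyond the axes are not drawn. In the left panel Smarca1 and Kdm4c lie above 0 at low GC content and Hdac5 and Hdac11 below 0 at high GC content, along the slope of the grey points.

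A further 15 of the 83 genes had an unadjusted p under 0.05 between male and female KO without passing the threshold, which makes 19 or 22.9%, against 23.3% of all genes. Of those 19, 15 were higher and 4 lower in male KO, 18.1% and 4.82%, against 10.3% and 13.0% of all genes. Chd8 was next in line, at 0.13 (adjusted p = 0.0578), ahead of Brd8 at 0.14 (adjusted p = 0.0653). The median over the set was 0.0199, with 45 genes above and 38 below 0, beside -0.00985 over all genes. Rescaling every library to one upper quartile gave 49 above and 34 below, and removing the GC trend 58 above and 25 below. Without the libraries high in Ttr, 40 were above and 43 below 0. At an unadjusted p under 0.05, 8 of the set were then higher and 7 lower, against 6.92% and 10.2% of all genes. Without those high in Prl, 44 were above and 39 below 0. At that p, 5 were then higher and 4 lower, against 6.19% and 7.8% of all genes.

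Fewer genes differed between male and female WT. The comparison called 0.129% of all genes and none of the 83, and 8 of the set had an unadjusted p under 0.05 (9.64%, against 10.3% of all genes). Arid4a had the smallest adjusted p, 0.215. It stood at 13.6, 13.7, 15.4, 13.9 and 13.1 FPKM in male WT, against 12.3, 12.9, 12.8, 12.4 and 12.3 FPKM in female WT, without overlap and with a difference of 0.14. Groups were also apart for Kmt5a, higher in male WT, and Smarcal1, lower in male WT, which makes 3 genes or 3.61% of the set, against 2.18% of all genes.

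Several methyltransferase and BAF genes varied far more among libraries of a group than between groups. Smarca2, the BAF ATPase BRM, had 11.2, 14.3, 14.2, 14.7 and 9.80 FPKM in male KO, 10.5, 14.7, 8.91, 13.4 and 15.3 FPKM in female KO, 15.05, 15.04, 16.01, 9.87 and 10.1 FPKM in male WT, and 10.4, 15.2, 11.2, 14.4 and 14.99 FPKM in female WT. Every group held 2 libraries at or below 11.2 FPKM and 3 at or above 13.4 FPKM. Its SD of log2 values within groups was larger than that of 93.2% of all genes tested.

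Setd3 was also split, though not evenly over the groups: 18.5, 18.1, 25.9, 25.4 and 17.97 FPKM in male KO, 25.2, 25.3, 26.5, 24.2 and 17.9 FPKM in female KO, 19.4, 28.7, 28.9, 19.8 and 29.3 FPKM in male WT, and 26.2, 18.1, 18.3, 27.1 and 28.1 FPKM in female WT. No library fell between 19.8 and 24.2 FPKM, with 8 below and 12 above. The low ones were 3 male KO, 1 female KO, 2 male WT and 2 female WT libraries. Of the 8 libraries low in Setd3 and the 8 low in Smarca2, 4 were the same: male KO 1, male KO 5, male WT 4 and female WT 3.

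Kmt5a, the H4K20 monomethyltransferase, was low in 2 libraries, at 3.72 FPKM in female KO 5 and 3.38 FPKM in female WT 4, and between 7.08 and 9.75 FPKM in the other 18. Hdac3, the deacetylase of the NCoR complex, was low in male WT 4 at 11.2 FPKM and female WT 1 at 10.7 FPKM, with 15.4 to 18.2 FPKM elsewhere. Arid1a was low in male WT 3 alone, at 7.12 FPKM. In these 3 genes, 3.61% of the set against 3.37% of all genes, a single gap took up more than 50% of the range over the 20 libraries. Setd5 and Setd6 spread more evenly, Setd5 from 3.89 to 6.84 FPKM and Setd6 from 2.06 to 4.64 FPKM. Kmt2d reached 2.85 FPKM in male WT 4 and at least 4.65 FPKM in the others. At the other end, Brd1 ran from 6.91 to 7.998 FPKM over all 20 libraries, and 58 of the 83 genes had a highest value less than 1.5 times the lowest.

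**Figure D5:**
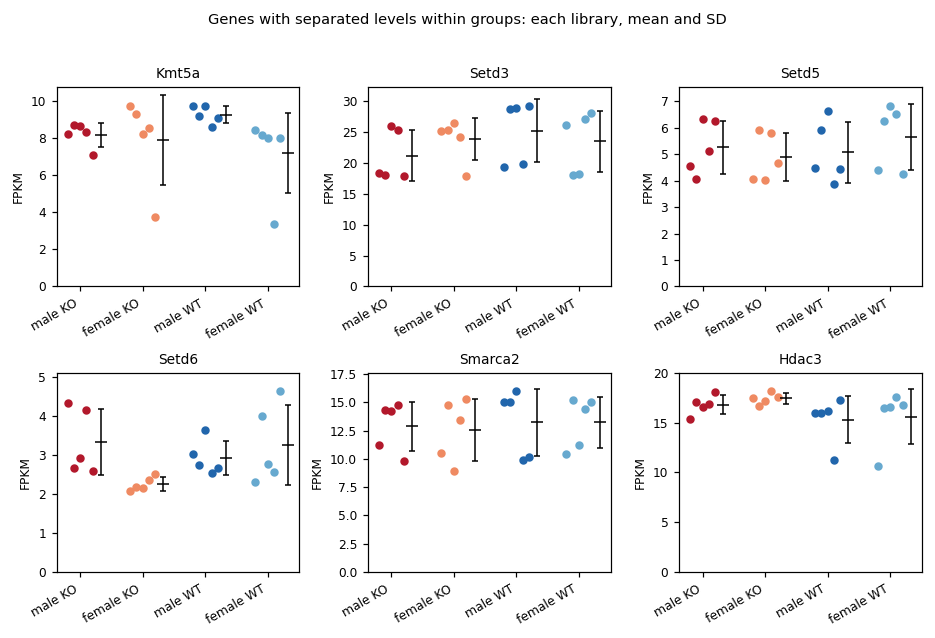
FPKM of Kmt5a, Setd3, Setd5, Setd6, Smarca2 and Hdac3 in each library of male KO, female KO, male WT and female WT, with mean and SD (n = 5 each). Smarca2 has 2 low and 3 high libraries in each group, Setd3 has 1 to 3 low libraries in each, and Kmt5a and Hdac3 have 2 low libraries over all groups.

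The 83 genes are long. The median of their longest coding transcripts was 5180 bases, against 3205 bases over all genes tested, and the median gene span was 49462 against 25053 bp. GC content was close to that of all genes, at a median of 51.3% against 50.2%. Only 3 of the set are X-linked: Hdac6, Hdac8 and Smarca1. Gene models overlapped another gene on the same strand for Chd1 and Setd1a and on the opposite strand for 13 genes, Kdm1a, Smarcd1 and Kmt2e among them, and the sources used here do not say whether reads were assigned by strand, so reads of such pairs may have been shared.

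Other chromatin genes were taken from a list of 105, of which 100 were measured. In female KO against WT, 2 of them were called, 2% against 3.32% of all genes, and 14 had an unadjusted p under 0.05, 14% against 19.5% of all genes. Cbx6, a Polycomb reader, was higher in KO by 0.22 (adjusted p = 0.0259), and it was also called in the mean over both sexes, at 0.15 (adjusted p = 0.0242). Ncor1, the corepressor that carries Hdac3, was lower in KO by 0.16 (adjusted p = 0.0276) in females. Neither value was recomputed under other settings. Calls over all genes in this female comparison went from 438 to 242 with the GC trend removed. They went to 76 without the libraries high in Ttr and to 8 without those high in Prl. No gene of the list was called in male KO against WT, against 0.0455% of all genes, and 9 had an unadjusted p under 0.05, 9% against 8.69% of all genes. Of the other subgroups, the smallest p in females belonged to Phf10 of PBAF (-0.16, adjusted p = 0.0554), the remodeler subunit Baz2b (-0.18, adjusted p = 0.0507), the methyltransferase Ash1l (-0.14, adjusted p = 0.115), the DNA methyltransferase Dnmt1 (-0.14, adjusted p = 0.184) and the acetyltransferase Crebbp (0.07, adjusted p = 0.329). Ash1l and Baz2b are thus not shown to have changed.

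Between male and female KO, 7 of the 100 were called, 7% against 5.38% of all genes. The remodeler Atrx (0.23, adjusted p = 0.0378), Phf10 (0.19, adjusted p = 0.0273), Ncor1 (0.15, adjusted p = 0.0275) and the H3K36 methyltransferase Nsd1 (0.15, adjusted p = 0.0471) were higher in male KO. Mbd3 (-0.24, adjusted p = 0.0264), a NuRD subunit, Cxxc1 (-0.21, adjusted p = 0.0294), a CpG-binding subunit of the Setd1 complexes, and Sin3b (-0.19, adjusted p = 0.0104) were lower. These 7 values were not recomputed under other settings.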

How the data were processed

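Hippocampal libraries from 5 samples in each of 4 groups were analysed from FPKM values per gene, deposited by the authors for each sample. Reads were handled with FastQC, HISAT2 and StringTie on mm10, per the submitters' processing notes. Their versions and settings, and read counts, are not given, so the depth behind each value is unknown. The labels do not say that replicates came from separate animals, so the p-values cover sample-to-sample spread alone, which may be technical.

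FPKM values were taken as deposited, without rescaling. Genes listed in all 20 libraries with at least 0.5 FPKM in 5 of them were tested on log2(FPKM + 1), a scale that understates changes of low genes. limma 3.58.1 in R 4.3.3 fitted 1 mean per group over all 20 libraries, with an empirical Bayes trend on level, and Benjamini-Hochberg adjustment ran over all 13174 genes. A gene was called at an adjusted p under 0.05. Fmr1 was tested with an exact two-sided permutation test. The model was also run on simulated data with independent noise for each gene. Those data held no trend on GC content by library and no RNA of other tissues, so the run does not cover these features.

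Genes named are those called, those with the highest mean or the smallest p for KO against WT in each family, and others chosen after their values were seen, mainly for spread between libraries. Values of 1 gene of the set are not reported here. The members, the gene lists and the thresholds on Ttr and Prl were chosen with earlier results of these data known. GC content and gene models came from the GENCODE annotation of GRCm38, and promoter windows from RefSeq. Alternatives were upper-quartile rescaling, removal of a loess trend on GC content, a pseudocount of 0.1 FPKM, no filter, a filter of 2 FPKM, a fit of only the groups compared, a replicate block, robust empirical Bayes, and leaving out libraries.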

Additional observations from a re-analysis of the deposited data

Results flagged for a closer look

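Among 60 genes named, each looked at in 4 groups of 5 libraries, 20 of 240 group values had 1 library standing apart from the other 4 by more than Dixon's 95% critical value. Chance alone flags about 1 in 20 such groups, but some of the genes, among them Kmt5a, Hdac3, Arid1a and Kmt2d, were chosen for their spread between libraries, so the count cannot be read against that rate. No cause was tested for any of them.

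In KO libraries, Kmt5a stood at 3.72 FPKM in female KO 5, against 8.19 to 9.75 FPKM in the other 4, and Setd3 at 17.9 FPKM in the same library, against 24.2 to 26.5 FPKM. Kdm4c was apart in female KO 1 (6.74 FPKM, the others 5.25 to 5.62), Kmt2e in female KO 4 (15.5 FPKM, the others 13.3 to 13.9), Setd1a in the same library (4.97 FPKM, the others 6.33 to 6.86) and Kmt2c in female KO 2 (5.76 FPKM, the others 5.37 to 5.43). Among males, Hdac9 was low in male KO 3 (2.96 FPKM, the others 3.22 to 3.27) and Arid2 high in male KO 1 (4.87 FPKM, the others 4.45 to 4.48). In male KO 4, Brd3 was low (8.68 FPKM, the others 9.72 to 10.1) and Kmt2a high (11.5 FPKM, the others 10.2 to 10.5).

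In WT libraries, male WT 3 was low in Arid1a (7.12 FPKM, the others 10.4 to 10.9) and high in Brd7 (11.4 FPKM, the others 10.2 to 10.3). Male WT 4 was low in Hdac3 (11.2 FPKM, the others 15.96 to 17.3) and Kmt2d (2.85 FPKM, the others 5.40 to 6.05), and male WT 2 in Brd9 (10.5 FPKM, the others 12.5 to 13.2). In female WT 1, Hdac3 (10.7 FPKM, the others 16.5 to 17.6) and Brd8 (4.42 FPKM, the others 4.95 to 5.14) were low. Kmt5a was low in female WT 4 (3.38 FPKM, the others 8.002 to 8.46), Hdac6 high in female WT 5 (4.74 FPKM, the others 3.83 to 4.07) and Chd3os high in female WT 3 (52.2 FPKM, the others 39.7 to 40.7).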

How the results depend on the processing

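In KO against WT in males, in the difference of the KO effect between the sexes and in males against females within WT, no chromatin gene was called under any alternative run. In KO against WT in females 1 gene, Brd8, was called with upper-quartile rescaling, and 0 to 1 genes were called with 1 library left out: Brd8 without female WT 1, Kdm4c without female KO 1 and Setdb2 without female KO 4. For the mean KO effect, a filter of 2 FPKM called 1 gene, Smarcd1, and leaving out 1 library called 0 to 2, with calls made without female WT 1, male KO 1 or male WT 4. In males against females within KO, where 4 genes were called, 0 were called with the GC trend removed, 0 without the libraries high in Ttr, 0 without those high in Prl and 2 in a fit of only the KO groups, and leaving out 1 library called 0 to 5. The median difference of that comparison was -0.00764 without the libraries high in Ttr, against 0.0199, and the median for the difference of the KO effect was 0.0213 with the GC trend removed, against -0.00554. Hdac10 in females, at -0.06, stood at 0.0286 without the libraries high in Prl. The cause of these shifts was not tested.

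Sample titles carry replicate numbers, but same-numbered libraries of different groups did not deviate together (correlations from -0.105 to 0.0651), so the numbers were not taken as a pairing. With the replicate block 2 genes, Kdm4c and Smarca1, were called between male and female KO. Depth is unknown, so no detection limit can be given for the genes under 1 FPKM.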
